A study of Mus musculus with 2 samples.

Results

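The Slit, Robo and netrin guidance genes are 10 genes that steer growing axons and migrating cells: the ligands Slit1, Slit2, Slit3 and Ntn1 and the receptors Robo1, Robo2, Robo3, Dcc, Unc5c and Unc5d. They were chosen by symbol, and all 10 were found among the 43346 genes quantified. The data were total RNA-seq of whole midbrain from newborn mice (postnatal day 0) of the strain B6NTac;B6NCrl/Lap, males and females mixed. The labels define 1 group of 2 libraries: replicate 1 came from a pool of 15 animals, replicate 2 from a pool whose size was not given, and the labels call them independent isolates. No treated, mutant or older group was included here, so the comparisons are between genes within a library and between the 2 libraries.

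Slit proteins are secreted ligands that mostly repel axons through Robo receptors, and they keep axons that have crossed the midline from crossing again. Netrin-1 is a laminin-related ligand that attracts axons through Dcc and repels them where Unc5 receptors are present. In the midbrain both systems help to route the ascending dopaminergic axons, the longitudinal tracts and the axons that cross at the ventral midline.

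The libraries held 46685706 counts in replicate 1 and 72779229 in replicate 2. All 5 midbrain markers listed (Otx2, En1, En2, Pax5, Pax7) were detected, with a summed level of 56.5 TPM in replicate 1 and 50.7 TPM in replicate 2. TPM is the deposited transcript level, with counts divided by transcript length and set to the same total in each library. The 2 libraries differed in neighbouring tissue. Summed hindbrain markers were 0.71 and 6.42 TPM in replicates 1 and 2, with Hoxd3 at 0 in replicate 1, and 3 of the 5 were more than 2-fold higher in replicate 2. The same held for 4 of 5 cerebellar markers (13.8 and 21.9 TPM in replicates 1 and 2), 3 of 5 choroid plexus markers (16.9 and 168 TPM) and 3 of 5 cranial motor neuron markers (2.63 and 4.51 TPM). Most of the choroid plexus sum was Ttr, at 14.4 TPM in replicate 1 and 162.6 TPM in replicate 2. The part of these tissues in any level below was not tested. In bulk tissue, fewer cells that express a gene and less RNA per cell cannot be told apart.

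Of the 10 guidance genes, 9 reached the detection threshold of 1 TPM in both libraries, and 4 of them (Robo2, Robo1, Slit1, Ntn1) reached 10 TPM in both. For comparison, 27.7% of all genes and 53.8% of protein-coding genes passed the threshold of 1 TPM in both libraries. The members were chosen with earlier results of these data known, so the gap between these shares is not a test. Robo2 was the most abundant and Robo3 the least. The share of protein-coding genes with a lower mean level was 94.7% for Robo2 and 39.9% for Robo3.

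**Figure D1:**
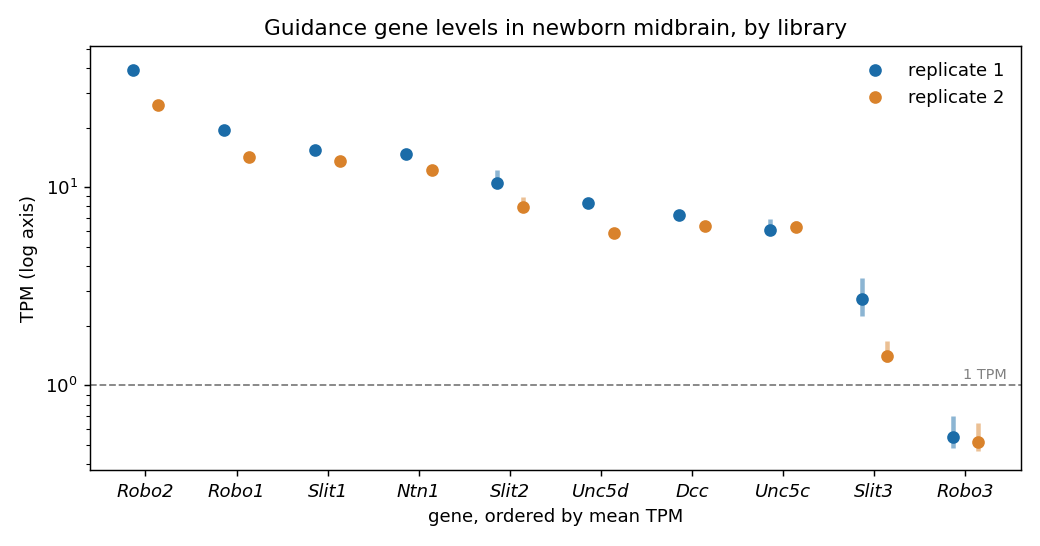
TPM on a log axis for each guidance gene in replicate 1 (left point) and replicate 2 (right point), ordered by mean TPM. Vertical bars are the authors' credibility bounds of each value; Robo3 lies below the dashed line at 1 TPM in both libraries, and Robo2 stands highest at 39.2 TPM in replicate 1 and 26.0 TPM in replicate 2.

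Among the Slit ligands, Slit1 was the most abundant, at 15.4 TPM in replicate 1 and 13.6 TPM in replicate 2 (14.5 ± 1.28, SD, n = 2), from 6067 and 9754 counts. Slit1 therefore made up 53.9% of the summed Slit level in replicate 1 and 59.3% in replicate 2. That sum includes noncoding transcripts. By protein-coding transcripts alone, Slit1 stood at 15.35 TPM in replicate 1 and 13.56 TPM in replicate 2. On that scale Slit2 stood at 4.23 and 3.16 TPM, and Slit3 at 0.97 and 1.16 TPM. Slit1 lies on the minus strand at chr19:41600257-41743665 (GRCm38, GENCODE M21, as all gene positions here). Nearly all of its level was divided between 2 protein-coding transcripts that differ at their last intron. Slit1-203 carried 61.7% of the gene's TPM in replicate 1 and 49.6% in replicate 2, and Slit1-201 carried 37.7% and 48.2%. In replicate 1 the credibility bounds of the 2 transcripts were apart (8.99 to 9.85 TPM for Slit1-203, 5.32 to 6.17 TPM for Slit1-201). In replicate 2 they overlapped (6.42 to 6.98 TPM for Slit1-203, 6.21 to 6.84 TPM for Slit1-201). Slit1-201 splices out an intron of 799 bases, whereas Slit1-203 keeps it and meets a stop codon 17 bases past the exon end. Its coding sequence has 1458 codons against 1531 in Slit1-201, a net difference of 73. The transcript sequences on either side of that exon end are shown because the 2 forms differ there. They differ elsewhere too, as Slit1-203 is 5673 bases long and Slit1-201 is 5045, a gap other than the intron's 799 bases. Lower case at the start is the shared exon end. Capitals mark the next exon in Slit1-201 (chr19:41600675-41601503, minus strand, spanning the intron) and the stop codon in Slit1-203 (chr19:41601469-41601503).
Slit1-201: agctgtgtgagcaagAGTCCGAGTGCCGGG
Slit1-203: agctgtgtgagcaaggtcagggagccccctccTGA

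Slit2, which with Slit1 repels axons at the ventral midline, stood at 10.5 TPM in replicate 1 and 7.95 TPM in replicate 2 (9.20 ± 1.77, SD, n = 2), from 2728 and 3765 counts. It spans 325 kb of the plus strand at chr5:47983138-48307733. Much of its TPM came from transcripts annotated as retained introns, which keep intron sequence and are not annotated as coding. They made up 57.3% of the TPM in replicate 1 and 54.7% in replicate 2, but 28.0% and 28.8% of the counts. Counting only protein-coding transcripts, Slit2 was at 4.23 TPM in replicate 1 and 3.16 TPM in replicate 2, and its place among the 10 genes moved from 5 to 8. The retained-intron transcripts at 10% or more of the gene were Slit2-207 (19.47% in replicate 1 and 18.98% in replicate 2) and Slit2-205 (17.6% and 15.1%). Slit2-205 is 415 bases long and rested on 19 and 23 counts.

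The leading protein-coding transcript of Slit2 was Slit2-202, with 26.5% of TPM in replicate 1 and 21.8% in replicate 2. Slit2-217 followed with 12.3% and 11.9%, and Slit2-216 had 1.62% and 6.13%. In the GENCODE M21 structures these differ by very short exons that keep the reading frame. Slit2-216 lacks an exon of 24 bases (8 codons) present in Slit2-202, and Slit2-217 has an exon of 27 bases (9 codons) absent from Slit2-202. Both exons are given because these few bases tell the M21 coding forms apart. In the files Slit2-202 is 6854 bases long, Slit2-216 is 5762 and Slit2-217 is 5139. The shares therefore do not measure the use of these exons alone. Capitals mark the exon and lower case the 10 bases of spliced transcript on each side; they lie at chr5:48220967-48220990 and chr5:48263641-48263667 on the plus strand.
Slit2 24-base exon: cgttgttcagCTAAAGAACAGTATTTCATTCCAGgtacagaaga
Slit2 27-base exon: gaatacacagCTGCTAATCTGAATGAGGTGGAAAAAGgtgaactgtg

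Slit3 was the least abundant Slit, at 2.72 TPM in replicate 1 and 1.41 TPM in replicate 2 (2.07 ± 0.926, SD, n = 2), from 438 and 846 counts. It spans 587 kb at chr11:35121224-35708507 on the plus strand. Its SD was the largest relative to its mean among the 10 genes, and the scale decided which library was higher. By TPM replicate 1 was higher, with a log2 ratio of 0.90. By scaled counts it was lower, at -0.34, and by the TPM of protein-coding transcripts alone it was also lower, at 0.97 TPM in replicate 1 and 1.16 TPM in replicate 2. Its leading transcript, the protein-coding Slit3-201, carried 35.5% of TPM in replicate 1 and 82.0% in replicate 2, and the noncoding Slit3-202 carried 29.65% and 17.98%. In replicate 1, Slit3-204, a noncoding transcript of 459 bases, carried 34.8% of the gene's TPM on 13 counts, and it had 0 counts in replicate 2. The effective length by which the gene's counts were divided was 2099 bases in replicate 1 and 4227 bases in replicate 2. A difference of 1.5-fold or more in that length was seen in 3.05% of detected protein-coding genes.

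Slit2 and Slit3 each carry a copy of a miR-218 gene in an intron: Mir218-1 in intron 16 of Slit2-202 (chr5:48223942-48224051) and Mir218-2 in intron 14 of Slit3-201 (chr11:35616816-35616925). In mouse, miR-218 is known to lower Robo1 and Robo2. Both hairpins had 0 counts in both libraries, which per the labels were made from RNA over 200 nucleotides and so do not report on mature miRNAs. The mature sequence (RefSeq, GRCm38.p6), the same from both copies, is shown with its seed, bases 2 to 8, in capitals.
miR-218-5p: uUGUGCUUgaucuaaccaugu

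The letters AAGCACA, the reverse complement of that seed, were searched on the transcript strand in the longest annotated 3′ UTR of each gene. They occurred in 4 of the 10 guidance genes: 2 times in Slit2, 1 time in Robo1, 2 times in Robo2 and 1 time in Robo3. For Slit2 and Robo3 the longest 3′ UTR belongs to a transcript with 0 counts in both libraries (Slit2-208 and Robo3-201). Over detected genes 16.2% held the match, and 45.7% of those whose 3′ UTR was at least as long as the guidance genes' median of 3567 bases. A match is a description of the sequence and was not tested as a site. The matches in the 2 most abundant receptors are printed with the match in capitals, at chr16:73045334-73045355 (plus strand) for Robo1 and at chr16:73895358-73895379 and chr16:73893032-73893053 (minus strand) for Robo2.
Robo1: ttttttggttttaaAAGCACAa
Robo2, match 1: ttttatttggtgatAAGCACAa
Robo2, match 2: gtcacggcagacccAAGCACAg

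Ntn1, which encodes netrin-1, stood at 14.7 TPM in replicate 1 and 12.2 TPM in replicate 2 (13.5 ± 1.80, SD, n = 2), from 5562 and 8592 counts. It lies at chr11:68209364-68400823 on the minus strand. Ntn1-201 carried 88.6% of its TPM in replicate 1 and 89.2% in replicate 2, with nearly all of the rest in Ntn1-203, a coding transcript of 944 bases. The summed markers of the floor plate, the ventral midline tissue that makes netrin-1 and Slits, were 10.3 TPM in replicate 1 and 10.8 TPM in replicate 2, most of it Spon1. Of those 6 markers 2 were detected, and Shh stood at 0.31 and 0.55 TPM.

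Robo2 was the leading receptor, at 39.2 TPM in replicate 1 and 26.0 TPM in replicate 2 (32.6 ± 9.36, SD, n = 2), from 13398 and 18317 counts. It made up 66.2% of the summed Robo level in replicate 1 and 63.9% in replicate 2. Robo1, its close relative, followed at 19.5 TPM in replicate 1 and 14.1 TPM in replicate 2 (16.8 ± 3.80, SD, n = 2), from 10898 and 14616 counts. The Robo2 share depended on the length used. With counts divided by the length of the longest protein-coding transcript, Robo2 exceeded Robo1 by log2 0.21 ± 0.02, against 0.94 ± 0.09 by TPM. Both encode Slit receptors, and they lie on chromosome 16 with their ends facing, Robo1 at chr16:72308306-73046095 on the plus strand and Robo2 at chr16:73891839-74411825 on the minus strand, 846 kb apart.

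Robo1 had a lone transcript in the annotation of the files, while Robo2 had 9, of which 8 had counts. Robo2-202 led with 34.4% of TPM in replicate 1 and 36.7% in replicate 2, and Robo2-203 followed with 22.6% and 28.4%. By counts the order of the 2 differed between libraries, with 44.1% for Robo2-202 and 39.9% for Robo2-203 in replicate 1, and 42.2% for Robo2-202 and 44.8% for Robo2-203 in replicate 2. Robo2-205, a coding fragment of 519 bases, had 20.1% of TPM in replicate 1 and 16.7% in replicate 2 on 1.08% and 0.804% of the counts. In the M21 structures Robo2-203 includes exons of 273 and 126 bases that Robo2-202 lacks, and Robo2-202 ends a later exon 9 bases (3 codons) further on. The shorter exon of Robo2-203 (42 codons, chr16:73933046-73933171, minus strand) is printed in capitals. So are the 9 added bases of Robo2-202 (chr16:73897007-73897015, with 10 transcript bases on each side in lower case). These are 2 of the pieces in which the 2 main coding forms differ. In the files Robo2-203 is 8124 bases long and Robo2-202 is 5988, so their shares do not measure the use of these pieces alone.
Robo2-203 126-base exon: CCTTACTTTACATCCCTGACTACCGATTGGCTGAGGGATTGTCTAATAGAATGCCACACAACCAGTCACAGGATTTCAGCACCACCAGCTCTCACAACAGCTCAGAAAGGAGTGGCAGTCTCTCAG
Robo2-202 9-base end: cagtttacagGTGAATTGTagtaactgag

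Robo3, the receptor that in mouse is needed for commissural axons to cross the midline in hindbrain and spinal cord, stood at 0.55 TPM in replicate 1 and 0.52 TPM in replicate 2 (0.535 ± 0.0212, SD, n = 2). Its 156 and 202 counts were well above the floor of 3. The upper credibility bounds of 0.705 TPM in replicate 1 and 0.647 TPM in replicate 2 lay below the detection threshold. That holds for the deposited TPM. With TPM set to the same total over protein-coding genes alone, Robo3 stood at 2.46 in replicate 1 and 2.63 in replicate 2. It was also the smallest of the genes, spanning 17.6 kb at chr9:37415669-37433246 on the minus strand. Robo3 was the only member whose leading transcript differed between the libraries. The protein-coding Robo3-202 carried 51.6% of TPM in replicate 1 and was at 0 in replicate 2. Robo3-203, which retains an intron, carried 3.05% in replicate 1 and 56.2% in replicate 2. Robo3-206, also a retained-intron form, carried 42.9% and 23.3%, and Robo3-205, annotated for nonsense-mediated decay, 2.48% and 20.5%. In mouse, Robo3 forms that differ by a kept intron are known to have different roles before and after crossing; which of them the transcripts named here encode was not tested. Leading transcripts differed between the libraries in 17.2% of detected protein-coding genes with more than 1 transcript. Among the members 8 had more than 1 transcript.

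Promoter sequences were available for 6 of the 10 genes (RefSeq, GRCm38.p6: 250 bases before to 50 after a start), and those of Slit1, Ntn1 and Unc5d were among the missing entries. Robo2 and Robo3, the highest and the lowest of the 10 genes, are shown by the window nearest the start of the gene as positioned above. Each of these 2 windows held 17 CpG pairs, in capitals, against a median of 7 over 32851 promoters; 31.4% of those promoters held as many or more. Robo2 had windows at 2 other starts, further upstream, with 5 and 9 CpG pairs, and which start was used was not measured. They lie at chr16:74411776-74412075 and chr9:37433126-37433425, both on the minus strand.
Robo2: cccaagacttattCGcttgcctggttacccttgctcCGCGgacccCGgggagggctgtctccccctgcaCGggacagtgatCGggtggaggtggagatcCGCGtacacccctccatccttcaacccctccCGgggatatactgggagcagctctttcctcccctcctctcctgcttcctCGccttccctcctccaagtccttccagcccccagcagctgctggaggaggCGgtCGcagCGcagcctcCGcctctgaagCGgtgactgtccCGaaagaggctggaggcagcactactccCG
Robo3: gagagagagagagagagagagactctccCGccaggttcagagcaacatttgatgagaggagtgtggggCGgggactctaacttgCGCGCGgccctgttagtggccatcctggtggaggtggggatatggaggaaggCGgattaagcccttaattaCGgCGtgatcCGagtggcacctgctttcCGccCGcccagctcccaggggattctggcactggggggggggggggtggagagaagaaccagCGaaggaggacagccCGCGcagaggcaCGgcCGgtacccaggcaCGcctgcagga

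The netrin receptors Unc5d and Unc5c, which turn the response to netrin into repulsion, stood close to each other. Unc5d stood at 8.35 TPM in replicate 1 and 5.91 TPM in replicate 2 (7.13 ± 1.73, SD, n = 2), from 5535 and 7243 counts assigned to its lone transcript at chr8:28646717-29219636 on the minus strand. Unc5c stood at 6.10 TPM in replicate 1 and 6.32 TPM in replicate 2 (6.21 ± 0.156, SD, n = 2), from 3569 and 6577 counts, at chr3:141465216-141834924 on the plus strand. It was the only member with a lower TPM in replicate 1. Its leading transcript, Unc5c-202, carried 76.2% of TPM in replicate 1 and 71.0% in replicate 2, and Unc5c-201, with an added exon of 57 bases (19 codons, chr3:141786857-141786913, plus strand), 10.7% and 12.1%. That exon is shown in capitals, with 10 transcript bases on each side, as a coding difference between the 2 forms. In the files Unc5c-201 is 3890 bases long and Unc5c-202 is 9298, so their shares do not measure the use of this exon alone.
Unc5c-201 57-base exon: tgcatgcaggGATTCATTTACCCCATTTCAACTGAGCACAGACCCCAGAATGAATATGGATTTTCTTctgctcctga

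Dcc, the receptor through which netrin-1 attracts axons, stood at 7.26 TPM in replicate 1 and 6.38 TPM in replicate 2 (6.82 ± 0.622, SD, n = 2), from 2682 and 4400 counts. It was the largest gene, spanning 1097 kb of chromosome 18. Dcc-202 carried 90.9% of TPM in replicate 1 and 93.9% in replicate 2. Dcc-201, whose exon of 173 bases lacks 60 bases (20 codons) of the 233-base exon in Dcc-202, had 0 and 0.35%. Mouse Dcc is known to be made in a long and a short form that differ there under the splicing factors Nova1 and Nova2, which stood at 30.9 and 21.1 TPM (Nova1) and 5.65 and 3.84 TPM (Nova2) in replicates 1 and 2.

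**Figure D2:**
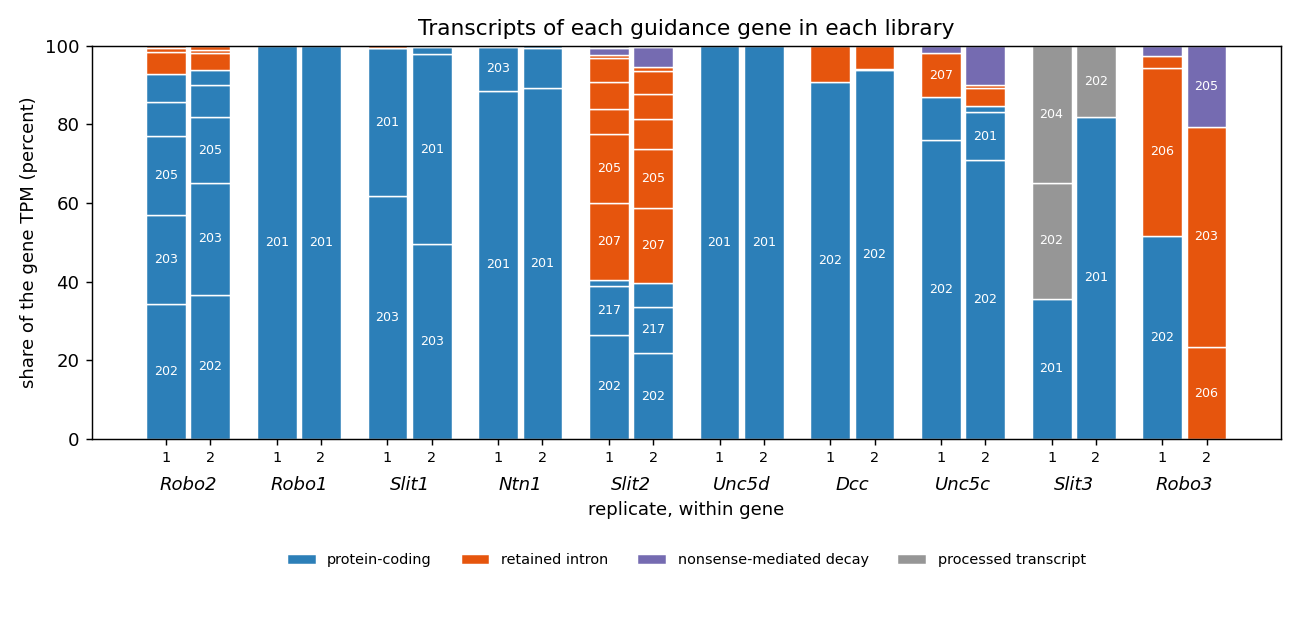
Share of each gene's TPM carried by each annotated transcript, in percent, in replicate 1 (left bar) and replicate 2 (right bar), coloured by annotated class; numbers inside the segments are transcript names without the gene. In 9 of the 10 genes the same transcript led in both libraries, which was fixed for Robo1 and Unc5d, with 1 transcript each. Slit2 and Robo3 held the largest shares of transcripts annotated as retained introns.

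Across the 10 genes, 59 transcripts were annotated in the files and 44 had counts. Retained-intron transcripts took 20% or more of the counts in both libraries in 2 of the 10 genes, Slit2 and Robo3, and in 4.07% of detected protein-coding genes. Transcripts under 1000 bases took 20% or more of TPM in both libraries in 2 genes, Slit2 and Robo2, and in 18.8% of detected protein-coding genes. For Robo2 they took 27.1% of TPM on 1.48% of counts in replicate 1 and 20.4% of TPM on 0.994% of counts in replicate 2. The genes were also long. Their median span was 445 kb against 17.7 kb over protein-coding genes, and 9 of the 10 spanned 100 kb or more, against 16.4% of detected protein-coding genes.

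**Figure D3:**
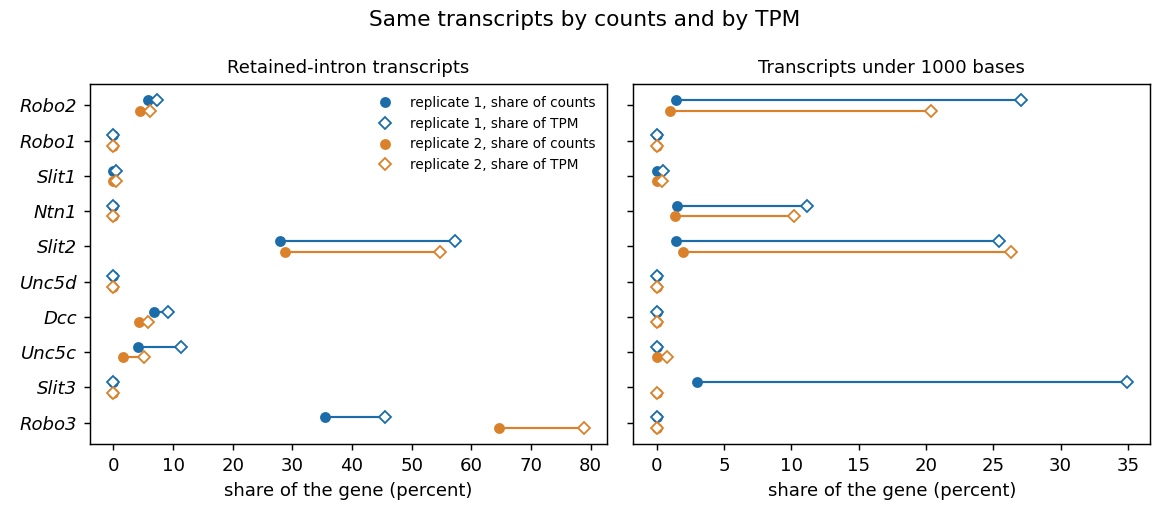
Share of each gene held by retained-intron transcripts (left panel) and by transcripts under 1000 bases (right panel), in percent of counts (filled circles) and of TPM (open diamonds), replicate 1 above replicate 2 within each gene. In replicate 1 retained-intron transcripts of Slit2 held 28.0% of counts and 57.3% of TPM.

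Within a library the genes formed an order that ran, by mean TPM, from Robo2 through Robo1, Slit1, Ntn1, Slit2, Unc5d, Dcc, Unc5c and Slit3 to Robo3. Of the 45 pairs of genes, 27 were apart by 2-fold or more the same way in both libraries. Among the 36 pairs of detected genes 18 were, or 50%, which is below the 57.3% found over all pairs of detected protein-coding genes. With 2 libraries no exact test can reach a p of 0.05, so these are values without a test. Of the 9 steps between neighbours in the order, 2 passed 2-fold in both libraries, Unc5c over Slit3 (log2 1.61 ± 0.67) and Slit3 over Robo3 (1.70 ± 0.59). Another 4 had the same sign in both libraries and a mean above the SD: Robo2 over Robo1 (0.94 ± 0.09), Ntn1 over Slit2 (0.55 ± 0.08), Slit2 over Unc5d (0.37 ± 0.07) and Slit1 over Ntn1 (0.11 ± 0.07). The 3 others did not differ beyond their spread by TPM: Robo1 over Slit1 (0.20 ± 0.20), Dcc over Unc5c (0.13 ± 0.17) and Unc5d over Dcc (0.05 ± 0.22, opposite signs in the 2 libraries).

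Several steps, among them that from Robo2 to Robo1, and the place of Slit2 depended on the length used. When counts were divided by the length of the longest protein-coding transcript, a scale chosen after seeing the data, Robo2 exceeded Robo1 by 0.21 ± 0.02 on the log2 scale. Robo1 over Slit1 (0.30 ± 0.18) and Dcc over Unc5c (0.34 ± 0.12) then had the same sign in both libraries and a mean above the SD. On that scale Slit2 was below Unc5d, with a log2 ratio of -0.60 ± 0.05. The levels on it were 35.3 and 31.0 counts per kilobase, scaled to library size, for Robo2 in replicates 1 and 2, and 30.9 and 26.6 for Robo1. Robo2 stayed the highest and Robo3 the lowest on both scales.

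**Figure D4:**
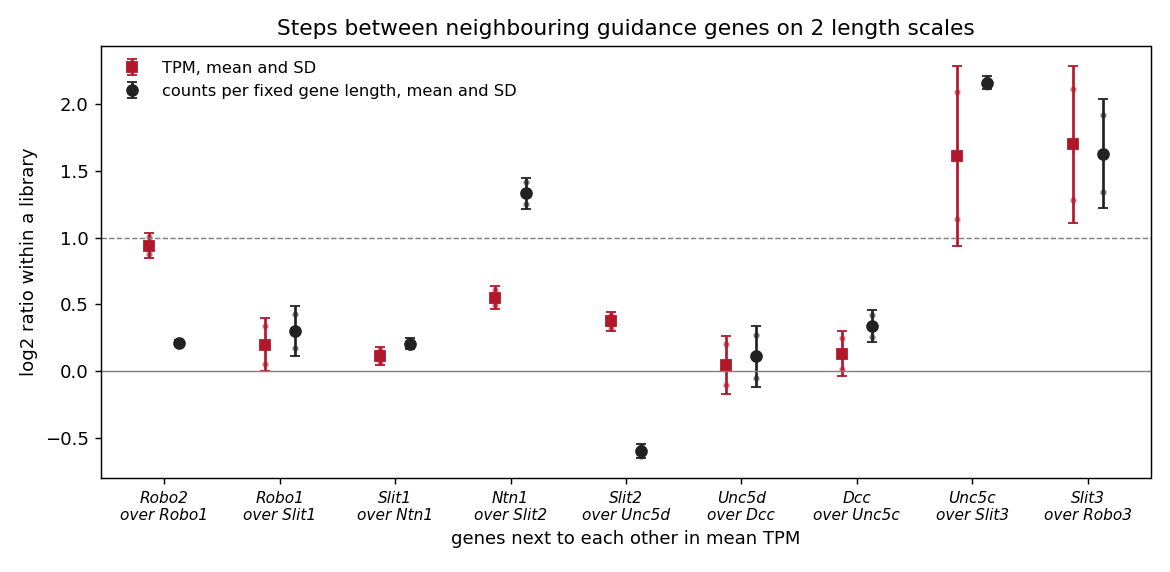
Within-library log2 ratio between genes next to each other in mean TPM, by TPM (squares) and by counts per length of the longest protein-coding transcript (circles); error bars are the SD of the 2 libraries, small dots the libraries, and the dashed line 2-fold. Robo2 over Robo1 is at 0.94 by TPM and at 0.21 by fixed lengths, and Slit2 over Unc5d is at 0.37 by TPM and at -0.60 by fixed lengths.

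Ligand and receptor levels were set side by side by family. The summed Slit level was 28.6 TPM in replicate 1 and 23.0 TPM in replicate 2, below the summed Robo level of 59.3 TPM in replicate 1 and 40.6 TPM in replicate 2 (log2 ratio -0.94 ± 0.16). These sums include noncoding transcripts, such as the retained-intron forms of Slit2. Ntn1 exceeded Dcc by 0.98 ± 0.06 on the log2 scale. It was level with Unc5c and Unc5d summed (14.5 TPM in replicate 1 and 12.2 TPM in replicate 2; log2 ratio 0.01 ± 0.02). These are RNA levels in whole tissue and give no ratio of proteins.

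Between the libraries, no member differed by 2-fold on counts scaled by TMM, a method that centres the bulk of genes. Over the 18547 genes whose counts summed to 10 or more, 17.0% passed 2-fold, and of detected protein-coding genes 1.00% did. The log2 ratios of replicate 1 over replicate 2 ran from -0.34 for Slit3 to 0.23 for Robo3, with 5 of the 10 above 0. The median size of the ratio was 0.17 for the members, against 0.19 for detected protein-coding genes. Among the receptors, Unc5d (0.22), Robo1 (0.18) and Robo2 (0.15) were higher in replicate 1, and Unc5c (-0.28) and Dcc (-0.11) lower. Slit2 (0.14) was higher, and Slit1 (-0.08) and Ntn1 (-0.02) were near 0. With 1 library on each side there is no test of these values.

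By deposited TPM, 9 of the 10 genes were higher in replicate 1. Detected protein-coding genes as a whole were shifted the same way, with a median log2 TPM ratio of 0.26, against 0.33 for the members. The TPM differences of the members are therefore given beside that shift, and the scaled counts above are the values on which the libraries were compared.

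**Figure D5:**
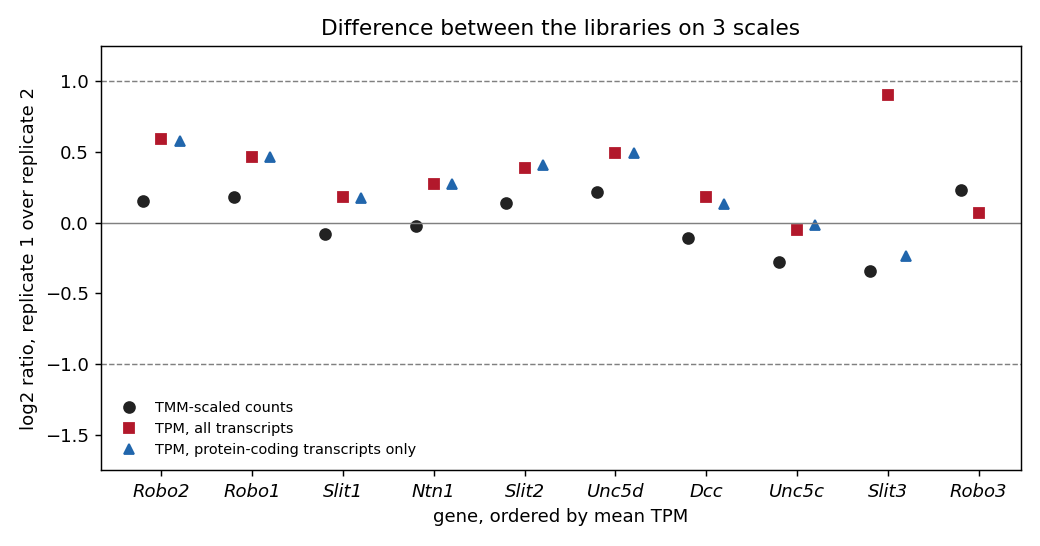
Log2 ratio of replicate 1 over replicate 2 for each gene on TMM-scaled counts (circles), TPM (squares) and TPM of protein-coding transcripts (triangles; Robo3, with 0 in replicate 2, is left out). Dashed lines mark 2-fold; Slit3 is at 0.90 by TPM and at -0.34 by scaled counts.

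The partners of these genes were detected almost throughout. Of 70 other genes of the pathway listed by role, 69 were measured (Ntn3 was not matched). Of those, 66, or 95.7%, were detected, against 53.8% of protein-coding genes. The lists were chosen with earlier results of these data known, so the gap between these shares is not a test. None of these 69 differed by 2-fold between the libraries on scaled counts, against 1.00% of detected protein-coding genes.

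Among other ligands and netrin relatives 9 of 11 were detected. Nell2, a secreted ligand of Robo3, was the highest at 46.2 TPM in replicate 1 and 36.6 TPM in replicate 2, although Robo3 itself was below threshold. It was followed by Rgma (27.2 ± 1.76 TPM, SD, n = 2) and Rgmb (25.2 ± 4.26), ligands of the Dcc relative neogenin, Ntng1 (12.7 ± 3.23) and Ntng2 (10.4 ± 1.14), membrane-anchored netrin-G proteins, and Flrt2 (9.31 ± 1.61), a ligand of Unc5 receptors. Ntn4 (0.98 and 0.94 TPM in replicates 1 and 2) and Ntn5 (0.29 and 0.24 TPM) were below threshold. That holds for the deposited TPM, and detection was not counted with TPM set to the same total over protein-coding genes alone.

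All 10 other receptors and co-receptors were detected, led by Lingo1 (30.3 ± 4.61 TPM, SD, n = 2), which encodes a co-receptor of the Nogo receptor. Neo1, which encodes neogenin, stood at 27.4 TPM in replicate 1 and 22.9 TPM in replicate 2, above its relative Dcc in both libraries. Dscam, a netrin receptor, at 15.04 TPM in replicate 1 and 13.05 TPM in replicate 2, Lrrc4c (12.4 ± 0.375), a receptor of netrin-G1, Dscaml1 (5.99 ± 0.113) and Unc5a (5.24 ± 0.106) came next. Robo4, the endothelial member of the Robo family, was at 2.48 TPM in replicate 1 and 1.63 TPM in replicate 2, with summed endothelial markers at 60.7 and 41.0 TPM.

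All 24 intracellular partners were detected. Tubb3, a neuronal tubulin that binds Dcc, stood at 771 ± 63.0 TPM (SD, n = 2), and Cdc42, a small GTPase whose activity Slit signalling lowers, at 126 ± 26.9. Evl (34.9 ± 4.91), of the Ena/VASP actin regulators, Rac1 (32.8 ± 3.38), a GTPase of netrin signalling, Mapk8ip3 (31.8 ± 1.21), a scaffold for axonal transport, and Pak1 (31.2 ± 5.43), a kinase activated by Rac1, followed. The Slit-Robo GTPase-activating proteins Srgap1, Srgap2 and Srgap3, which bind Robo1, were at 6.17 ± 0.622, 15.6 ± 2.29 and 13.7 ± 4.10 TPM.

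Of 20 genes that set receptor levels at the surface, cleave receptors or make heparan sulfate, which Slits need to bind Robo, 19 were detected. Ndfip1 (138 ± 17.95 TPM, SD, n = 2), Nedd4 (96.6 ± 24.2) and Ndfip2 (31.3 ± 3.32), of the ubiquitin system that lowers Robo1 at the surface, were among the highest, with the proteoglycans Sdc3 (136 ± 2.26) and Gpc1 (35.98 ± 11.8) and the Slit-binding dystroglycan gene Dag1 (26.3 ± 0.700). Prrg4, which lowers surface Robo1, was below threshold by deposited TPM, at 0.83 TPM in replicate 1 and 0.28 TPM in replicate 2. All 4 RNA regulators of Robo and Dcc were detected, with Ptbp2 at 32.6 ± 8.96 TPM and Rbm4 at 18.2 ± 3.68 TPM beside Nova1 and Nova2 above.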

How the data were processed

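Per the labels, RNA over 200 nucleotides was depleted of ribosomal RNA and sequenced as stranded pairs of 101 bases. The authors deposited, per gene and transcript on mm10 with GENCODE M4, estimated counts (expected counts), TPM, FPKM, each transcript's percent of its gene, and bounds of the TPM estimates, treated here as a signal never below 0; the sources used here do not name the aligner or counter. Reads of near-identical transcripts are divided by that estimate, so transcript shares are less certain than gene counts. Symbols, positions and exon structures came from GENCODE M21, which named 58 of the members' 59 transcripts and gave 35 the same length; other structures may differ from M4. Promoter and miRNA sequences were RefSeq's.

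Detection required 1 TPM in both libraries. Gene pairs were compared as log2(TPM + 0.1) ratios within a library. Libraries were compared on counts, with 0.5 added and a summed count of at least 10, scaled by TMM (edgeR 4.0.16, checked on simulated data) or DESeq2 1.42.0 size factors. The libraries were counted as 2 because the labels call them independent isolates; their counts differed by more than sampling (chi-square per degree of freedom 51.4), which speaks only to whether 1 library was deposited 2 times. SD is over those libraries; nothing says whether the pools shared litters. Credibility bounds and the floor of 3 counts cover counting error only. Python 3.11.15, pandas 2.3.3 and R 4.3.3 were used.

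The members and gene lists were chosen with earlier results of these data known. Named were all members, up to 6 genes per wider list by mean TPM with those below threshold in both libraries, and transcripts leading or at 20% of a gene; Srgap1, Srgap2, Srgap3, Robo4, the single markers and the other transcripts were named after their values were seen.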

Additional observations from a re-analysis of the deposited data

How the results depend on the processing

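Detection of 9 members gave 8 to 10 under other thresholds, posterior mean TPM or coding transcripts alone (Slit3 was then below 1 TPM in replicate 1), and 9 without either replicate; of the wider list 63 to 67 were detected. The 27 pairs became 23 (pseudocount 1), 31 (coding transcripts), 30 (fixed lengths, added after seeing the data), and 29 to 31 with a replicate left out; no called pair reversed. Under coding transcripts Slit2 was below Unc5d, Dcc and Unc5c in both libraries; under fixed lengths it was below Unc5d and Dcc in both, and did not differ from Unc5c beyond the spread (log2 -0.16 ± 0.29). No scaling put a member past 2-fold. The same transcript led in 8 genes by posterior mean shares, against 9, both including Robo1 and Unc5d with their lone transcripts. Leaving out a library gives no such count. Of 103 values of single genes or neighbour pairs under alternatives that keep the unit, 17 moved by more than 1 SD. The 103 include values with a replicate left out, which could not move that far, because 1 of 2 values always lies within 1 SD of their mean. With the alternatives that change the unit added, 34 of 123 moved. Those alternatives include TPM set to the same total over protein-coding genes alone, under which the level of every member moved. Robo3 then stood at 2.46 in replicate 1 and 2.63 in replicate 2, above 1. Detection was not counted on that scale. No paired analysis was possible because the labels define 1 group. The transcript shares of Robo3 rest on 156 counts in replicate 1 and 202 in replicate 2.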
